A study of Mus musculus with 22 samples.

Results

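LPS-only windows were 10559 of the 96381 windows in which H3K27ac of untreated Kupffer cells was counted. Each window is 1000 bp long and is centered on a merged peak of open chromatin (ATAC-seq), and the source of every peak is recorded with its window. The LPS-only windows are those that name an ATAC-seq peak of Kupffer cells taken 2 h after lipopolysaccharide (LPS) and no peak of untreated (Control) cells from any strain. The other 85822 windows hold a Control peak, and of these 59263 also hold an LPS peak and 26559 hold a Control peak alone. A window without a Control peak is one where no reproducible peak was called, which does not show that the DNA was closed. Of the LPS-only windows, 3941 had an LPS peak in both BALB/cJ and C57BL/6J. Another 2932 had it in BALB/cJ alone, and the remaining 3686 only in C57BL/6J. No LPS peak of A/J was among the sources.

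H3K27ac ChIP-seq was done on Kupffer cells, macrophages that live in the liver sinusoids, sorted from untreated male mice of the inbred strains A/J, BALB/cJ and C57BL/6J, with 3 libraries per strain. ChIP input, sheared chromatin sequenced without the antibody, was available for 3 libraries of A/J, 3 of BALB/cJ and 1 of C57BL/6J. CB6F1/J mice, the hybrids of BALB/cJ females and C57BL/6J males, gave 3 further H3K27ac libraries in which tags were counted for each allele. Every library compared came from cells that had not seen LPS. The windows were thus chosen by where peaks were called with and without LPS, and H3K27ac was measured in untreated cells alone. A change of accessibility with LPS was not tested here. The labels do not say whether replicates were separate animals, so p-values measure the spread between these libraries.

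LPS, a component of the outer membrane of Gram-negative bacteria, is sensed by Toll-like receptor 4 (TLR4), which activates NF-κB, the MAP kinases and, through interferon, the STAT and IRF factors. AP-1, a dimer of JUN and FOS family proteins, is one of the main factors activated by the MAP kinases. H3K27ac, the acetylation of lysine 27 of histone H3, marks nucleosomes beside active promoters and enhancers. In macrophages, some enhancers are open and acetylated before a stimulus, and others gain both only after it.

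H3K27ac tags in the windows numbered 2291426 to 12980348 per library and input tags 583518 to 1916588. Normalized counts below are tags divided by the library's effective size and scaled to the mean library, and the level of a window is the mean of its 9 normalized counts. The sorted cells carried the marks of their label. All 10 Kupffer cell markers had a promoter window, 9 of them over a level of 50, with Marco the lowest at 20.8 and Timd4 the highest at 418. No promoter window was found for the 6 hepatocyte or the 5 T and NK cell markers, and the sinusoidal endothelial markers reached 11.1 at most. Among the monocyte and neutrophil markers, Csf3r alone was high, at 423. More cells with the mark and more mark per cell cannot be told apart in sorted bulk cells.

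The reference bases at the center of 11 LPS-only windows are given here, because the results below turn on their letters, their level or their difference between strains. Each is the central 200 bases of a window on the + strand of mm10 (GRCm38), the C57BL/6J reference, and capitals mark matches on either strand to 7 motifs. The motifs were AP-1 (TGACTCA), the interferon-stimulated response element or ISRE (GAAANNGAAA), C/EBP (TTGCNNAA), PU.1 (GAGGAAGT), the E-box (CACGTG), CRE (TGACGTCA) and the NF-κB motif. The first 3, nearest Ptprj, Rxra and Zfp36, were highly acetylated in untreated cells of every strain and hold AP-1 matches. Ptprj encodes a receptor-type tyrosine phosphatase, Rxra a nuclear receptor that partners with LXR, and Zfp36 tristetraprolin, which destabilizes the mRNAs of inflammatory cytokines.
Ptprj, chr2:90560133-90560332: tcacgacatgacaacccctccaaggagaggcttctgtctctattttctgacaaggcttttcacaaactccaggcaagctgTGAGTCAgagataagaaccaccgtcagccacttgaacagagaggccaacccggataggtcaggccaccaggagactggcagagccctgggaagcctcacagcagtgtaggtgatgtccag
Rxra, chr2:27727024-27727223: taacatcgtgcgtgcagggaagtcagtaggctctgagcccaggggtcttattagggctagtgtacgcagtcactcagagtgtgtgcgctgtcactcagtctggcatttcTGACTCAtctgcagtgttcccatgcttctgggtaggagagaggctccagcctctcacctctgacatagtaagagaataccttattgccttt
Zfp36, chr7:28383882-28384081: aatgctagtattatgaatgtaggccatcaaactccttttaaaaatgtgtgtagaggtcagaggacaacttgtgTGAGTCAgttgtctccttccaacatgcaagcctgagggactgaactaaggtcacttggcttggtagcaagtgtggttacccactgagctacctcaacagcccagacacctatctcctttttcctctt

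The next 5 had more H3K27ac in C57BL/6J than in BALB/cJ and hold a match to AP-1 or ISRE. They lie nearest Pde4b, a phosphodiesterase that degrades cyclic AMP, Trim12a, of the TRIM family of antiviral proteins, the anti-inflammatory cytokine Il10, the cytokine subunit Il12b and the apoptosis inhibitor Birc3, which also acts in NF-κB signaling.
Pde4b, chr4:102516621-102516820: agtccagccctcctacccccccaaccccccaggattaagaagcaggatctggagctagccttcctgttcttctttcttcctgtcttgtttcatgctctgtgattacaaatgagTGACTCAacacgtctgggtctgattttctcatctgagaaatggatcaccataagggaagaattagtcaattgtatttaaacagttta
Trim12a, chr7:104315779-104315978: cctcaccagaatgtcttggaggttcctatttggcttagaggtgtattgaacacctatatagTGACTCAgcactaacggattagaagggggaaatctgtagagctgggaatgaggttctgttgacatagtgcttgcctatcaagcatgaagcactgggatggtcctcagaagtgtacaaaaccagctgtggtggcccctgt
Il10, chr1:131020564-131020763: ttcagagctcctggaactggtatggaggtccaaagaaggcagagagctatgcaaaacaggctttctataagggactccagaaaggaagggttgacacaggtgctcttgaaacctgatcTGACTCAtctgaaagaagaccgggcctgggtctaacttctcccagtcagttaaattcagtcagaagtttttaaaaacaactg
Il12b, chr11:44372278-44372477: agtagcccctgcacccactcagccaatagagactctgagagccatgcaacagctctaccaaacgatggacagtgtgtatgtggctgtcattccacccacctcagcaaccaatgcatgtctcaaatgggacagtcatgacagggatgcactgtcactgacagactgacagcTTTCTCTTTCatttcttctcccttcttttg
Birc3, chr9:7862969-7863168: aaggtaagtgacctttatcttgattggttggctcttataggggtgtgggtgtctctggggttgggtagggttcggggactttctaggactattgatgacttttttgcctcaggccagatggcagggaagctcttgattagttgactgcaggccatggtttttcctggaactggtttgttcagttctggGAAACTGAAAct

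The last 3 differed between strains without a match to AP-1 or ISRE in these bases. Cd5l encodes a secreted scavenger protein that is a hallmark of Kupffer cells, Sfn the 14-3-3 sigma protein and Cacna1a a subunit of a neuronal calcium channel. The Cd5l window holds an NF-κB match between C/EBP matches, whereas the other 2 hold no match to any of the 7 motifs.
Cd5l, chr3:87329336-87329535: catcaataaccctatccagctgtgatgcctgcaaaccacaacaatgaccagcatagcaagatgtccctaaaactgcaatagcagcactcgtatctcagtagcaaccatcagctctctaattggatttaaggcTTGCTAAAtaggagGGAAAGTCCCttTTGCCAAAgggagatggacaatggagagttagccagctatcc
Sfn, chr4:133615041-133615240: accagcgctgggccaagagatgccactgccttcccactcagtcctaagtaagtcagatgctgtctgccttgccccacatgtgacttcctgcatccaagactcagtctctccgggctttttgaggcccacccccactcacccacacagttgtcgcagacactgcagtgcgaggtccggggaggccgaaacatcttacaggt
Cacna1a, chr8:84414570-84414769: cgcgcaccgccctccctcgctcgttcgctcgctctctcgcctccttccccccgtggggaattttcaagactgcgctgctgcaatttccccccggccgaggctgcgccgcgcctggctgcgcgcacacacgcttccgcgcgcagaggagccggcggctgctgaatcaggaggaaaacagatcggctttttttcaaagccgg

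By the HOMER annotation, 5199 (49.2%) of the LPS-only windows were intronic, 4095 (38.8%) intergenic and 785 (7.43%) at promoters. Over all windows with a Control peak these shares were 42.9%, 34% and 16.1%, but windows with a Control peak alone were placed much like the LPS-only ones, at 47.7%, 36.6% and 7.24%. Their median distance to a transcription start site was 16583.5 bp against 10146 bp, and they had 5567 nearest genes. The midpoint of 4231 (40.1%) lay within 1000 bp of the midpoint of a Control window, so that both windows count some of the same tags, and the other 6328 did not overlap a Control window in this sense. The share was close to that of other windows, since 42.5% of windows with a Control peak and 37.0% of those with a Control peak alone lay as near to another Control window. Overlapping windows share tags and are not independent measurements.

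H3K27ac of untreated cells was lower in LPS-only windows than in windows with a Control peak, but not absent. The mean tag count of LPS-only windows was 56.4% of that of Control windows, a log2 ratio of -0.83 (range -0.87 to -0.76), and it was below 0 in 9 of 9 libraries (exact two-sided sign-flip permutation test, p = 0.00391, the smallest that 9 libraries allow). In the 7 input libraries the same ratio was -0.40 to -0.32. The H3K27ac ratio lay 0.47 below the input ratio on the log2 scale (exact permutation test of 9 against 7 libraries, p = 8.74e-05, the smallest possible). That test took the libraries as independent, although each input shares its strain and replicate number with an H3K27ac library. Without windows of extreme input or off the main chromosomes, a set chosen after seeing the data, the input ratio was -0.23 to -0.05, the H3K27ac ratio -0.80 and the difference -0.70. The direction depended on which Control windows were taken. Against windows with a Control peak alone, whose median level was 13.7, LPS-only windows had 1.17 times the mean count, a log2 ratio of 0.22 with all 9 libraries above 0 (exact sign-flip p = 0.00391). This held for means only, since by medians the same log2 ratio was -0.49 (range -0.70 to -0.26 over the 9 libraries). Against windows with both a Control and an LPS peak, whose median level was 51.3, the log2 ratio was -1.13.

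The mean hid a split into neighbors and isolated windows. The median level was 54.5 in LPS-only windows that overlapped a Control window and 5.40 in those that did not, beside 33.7 over all windows with a Control peak. A level over 16 was reached by 3207 (75.8%) of the overlapping and 710 (11.2%) of the isolated windows, and a level over 100 by 1434 and 14. Without the overlapping LPS-only windows the log2 ratio to all Control windows was -3.44 to -2.67 over the 9 libraries. Here Control windows that overlap another Control window were kept, so the 2 sets are unlike. Against Control windows at the same distance from another Control window, the mean log2 ratio was -2.07 at 1 to 5 kb. It was -2.23 at 5 to 20 kb and -2.20 over 20 kb. Isolated windows of Control peaks alone had a median level of 8.33, above the 5.40 of isolated LPS-only windows.

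The fall was gradual with distance from the nearest Control window, as the plot of H3K27ac by distance shows. The median level was 101.5 at 200 to 300 bp, 51.8 at 500 to 600 bp, 16.5 at 800 to 1000 bp and 5.68 at 2000 to 5000 bp. Beyond 20000 bp it was 4.30, with library medians of 3.15 to 5.93. Input changed little over the same distances, the median library going from 8.0 to 5.5 tags. Input tags were not scaled for depth and were not tested against the H3K27ac counts.

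**Figure D1:**
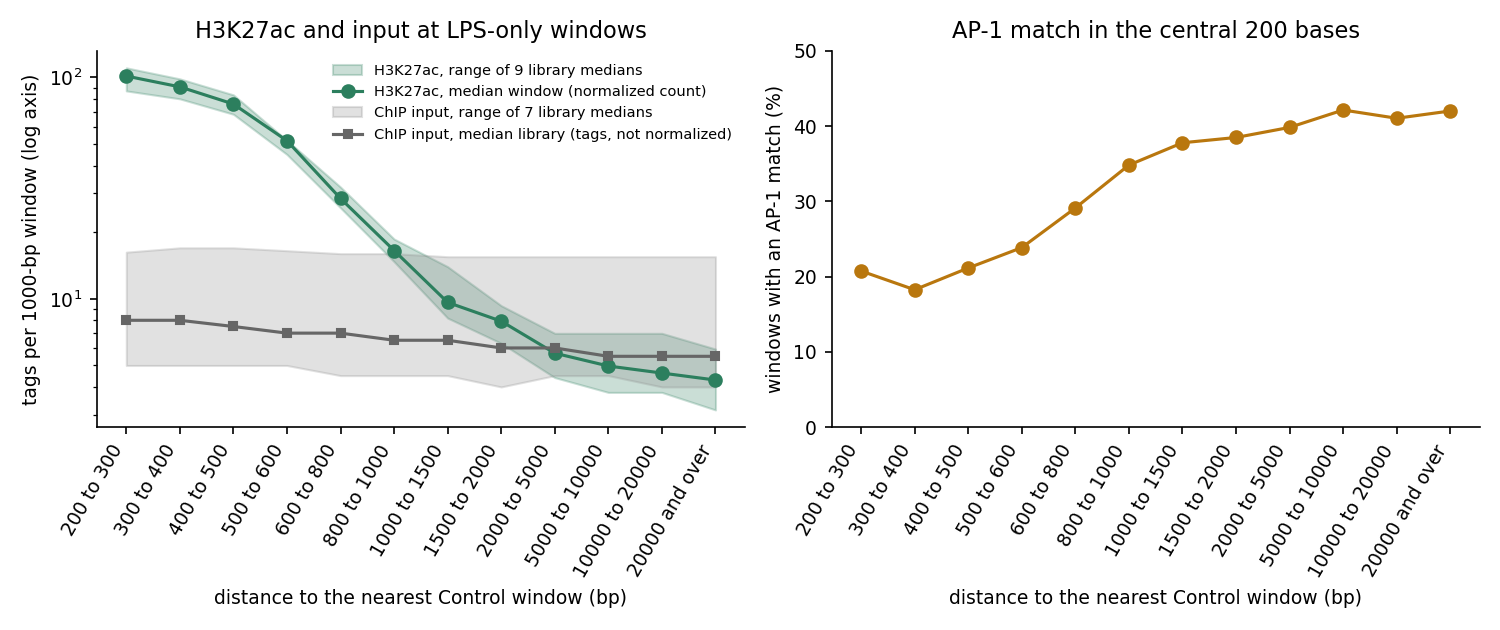
Left, tags per 1000-bp window (log axis) of LPS-only windows by distance to the nearest Control window, with the median window level for H3K27ac, the median library for ChIP input and shaded ranges over 9 and 7 library medians. Right, percentage of the same windows with an AP-1 match in the central 200 bases. H3K27ac falls from 101.5 to 4.30 while input stays between 8.0 and 5.5, and the AP-1 share goes from 20.7% to 42.0%.

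The kind of element changed the comparison. Promoter windows differed little, with a log2 ratio of LPS-only to Control windows of -0.05, whereas intronic windows were at -0.72 and intergenic windows at -1.22. Of the 785 promoter windows, 689 overlapped a Control window and had a median level of 131, against 112.5 for promoters with a Control peak. The other 96 promoter windows had a median level of 4.54. The ratio over all LPS-only windows was close in the 3 strains. A/J stood at -0.82 ± 0.04, BALB/cJ at -0.85 ± 0.03 and C57BL/6J at -0.81 ± 0.04 (SD, n = 3 each). The 3 differences were 0.02, -0.01 and -0.04, each with an adjusted p of 0.7 (exact permutation, where 3 against 3 cannot go below 0.10). Within replicate numbers, which paired the libraries, each of these differences had the same sign in all 3 pairs, where an exact sign-flip test cannot go below p = 0.25.

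The central bases of LPS-only windows were rich in AP-1 matches. Of 10556 LPS-only windows with a sequence, 3558 (33.7%) held TGACTCA or its reverse complement in the central 200 bases, against 8.52% of windows with a Control peak and 11.3% of all windows. The share was 43.5% where both strains had the LPS peak, 33.4% with a peak of BALB/cJ alone and 23.4% with a peak of C57BL/6J alone. It was 40.4% in isolated windows and 23.7% in overlapping ones. Windows with a Control and an LPS peak stood at 11% and windows with a Control peak alone at 3.04%. The median GC content was 47.5% in LPS-only and 50% in Control windows.

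AP-1 matches sat at the center of the peaks. In isolated windows, 17.5% held a match in the 50 bases right of the center and 0.87% in the last 50 bases of the window, whereas in windows with a Control peak alone 0.83% held one right of the center. Other motifs differed less. NF-κB matches were in 7.00% of LPS-only and 6.77% of Control windows, and C/EBP matches in 12.9% and 11.4%. PU.1 matches, the motif of the factor that selects macrophage enhancers, were fewer, in 4.06% against 9.14%. E-boxes were in 3.81% against 5.28%, and CRE in 0.41% against 0.88%. Over all windows the shares were 6.80% for NF-κB, 11.5% for C/EBP, 8.59% for PU.1, 5.12% for the E-box and 0.82% for CRE. A match is a run of letters and does not show binding.

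The ISRE, the motif of interferon-activated STAT and IRF factors, differed between the sources of the LPS peak. It was in 6.16% of windows with a peak of C57BL/6J alone, 2.05% with a peak of BALB/cJ alone and 2.64% with a peak of both, against 4.28% of all windows. In windows of C57BL/6J alone, 1.93% held a match in the 50 bases right of the center, against 0.65% in those of BALB/cJ alone. Every motif was sought in the C57BL/6J reference alone, so matches that BALB/cJ variants make or remove were not seen. A match to AP-1 did not go with more H3K27ac before LPS. Among isolated windows the median level was 4.99 with an AP-1 match and 5.64 without one, and it was 7.18 with an ISRE and 5.35 without one.

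**Figure D2:**
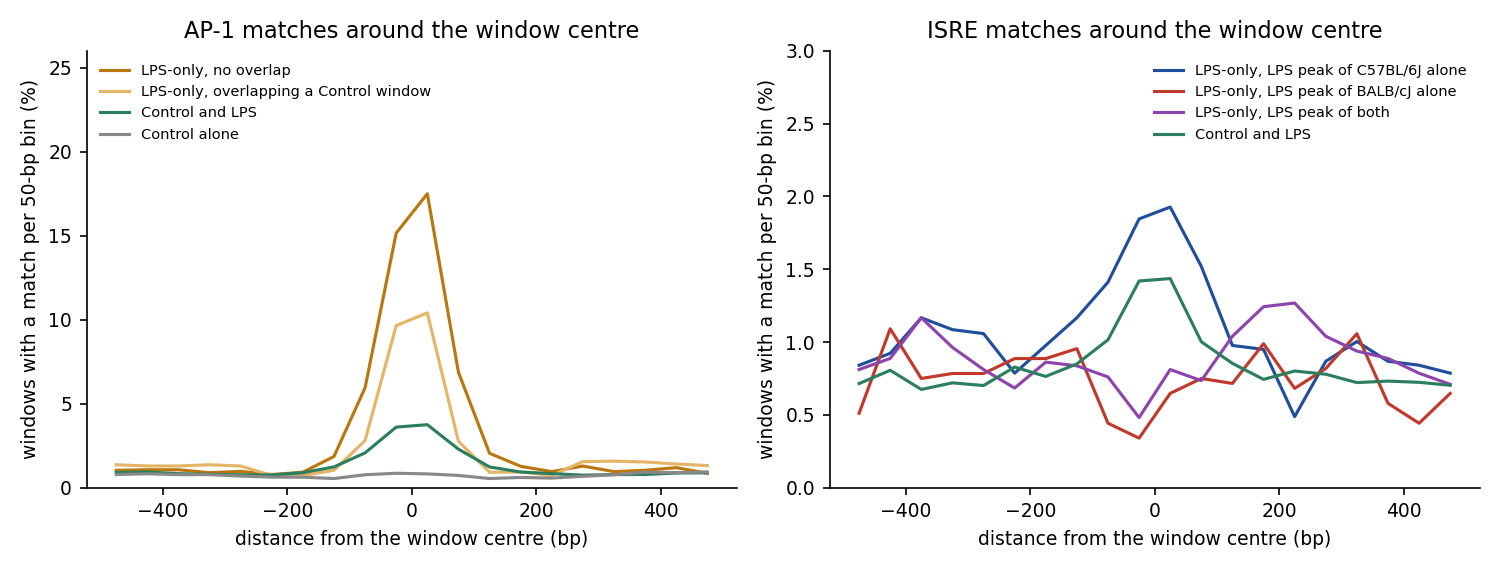
Percentage of windows with a motif match in each 50-bp bin by distance from the window center, for AP-1 (left) and ISRE (right), with 1 line per class of window. The AP-1 share of isolated LPS-only windows peaks at 17.5% at the center and that of windows with a Control peak alone stays under 1%. The ISRE share peaks at 1.93% with an LPS peak of C57BL/6J alone and shows no central peak with an LPS peak of BALB/cJ alone.

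Taken as a ratio between classes of LPS-only windows, H3K27ac before LPS leaned toward the strain that carried the LPS peak. Within each library, the mean count of windows with a peak of BALB/cJ alone was divided by that of windows with a peak of C57BL/6J alone. The log2 ratio was -0.31, -0.26 and -0.32 in the BALB/cJ libraries and -0.59, -0.50 and -0.64 in those of C57BL/6J, with A/J between them at -0.45, -0.41 and -0.43. BALB/cJ lay 0.28 above C57BL/6J, or 1.22-fold, and the libraries of the 3 strains did not overlap (exact permutation test, p = 0.10, the smallest that 3 against 3 allows). Among isolated windows the ratio was 0.34, 0.33 and 0.33 in the BALB/cJ libraries, against -0.38, -0.16 and -0.40 for C57BL/6J, a difference of 0.65. The isolated windows of A/J stood at 0.08, 0.06 and 0.14. The classes did not contribute alike. Isolated windows of C57BL/6J alone had mean normalized counts of 10.0, 11.8 and 9.55 in C57BL/6J, against 6.84, 7.80 and 7.32 in BALB/cJ. Isolated windows of BALB/cJ alone had 8.63, 9.78 and 9.23 in BALB/cJ and 7.69, 10.5 and 7.22 in C57BL/6J, which overlapped. In the 7 input libraries the ratio of isolated windows was -0.03 to 0.04, a far narrower range than in H3K27ac. The BALB/cJ inputs, at 0.02 to 0.04, lay above those of A/J, at -0.03 to 0.01, and the C57BL/6J input at -0.02. The part of recovered DNA or mapping in the H3K27ac ratio was not tested.

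**Figure D3:**
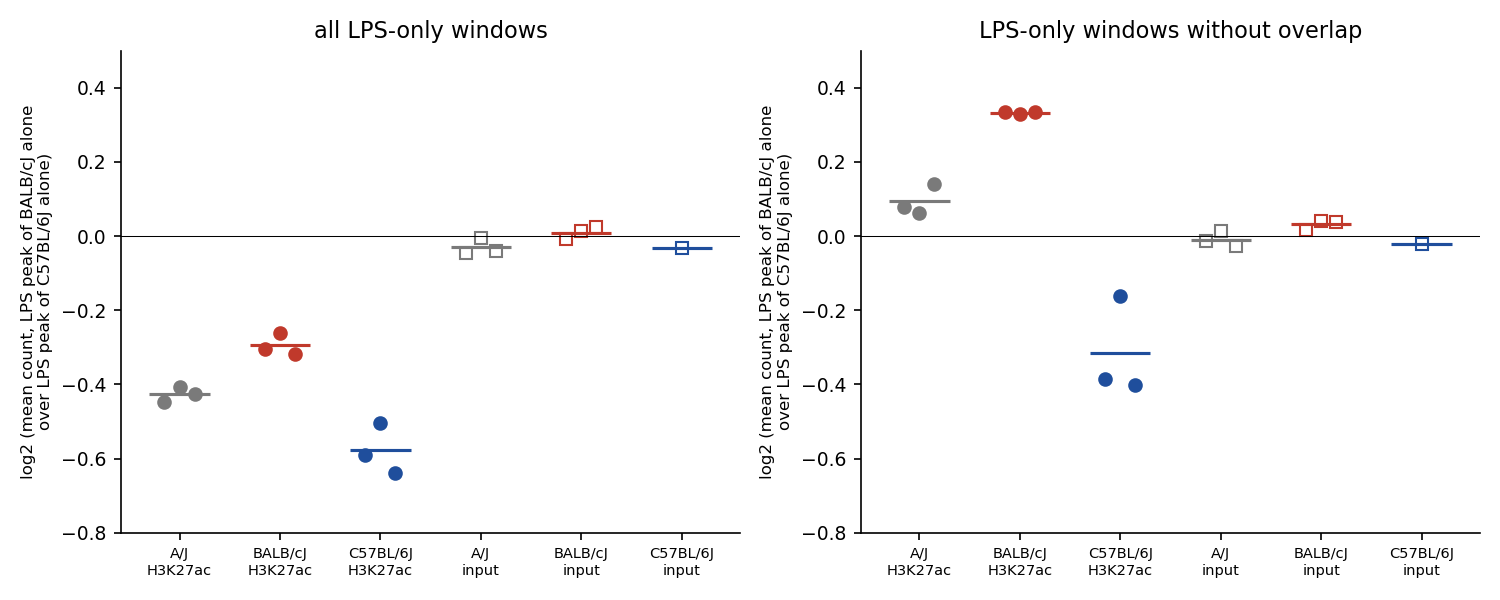
The log2 ratio of the mean count of LPS-only windows with an LPS peak of BALB/cJ alone over those of C57BL/6J alone, per library (points; filled for H3K27ac, open for input) with strain means (lines), over all LPS-only windows (left) and isolated ones (right). The BALB/cJ points lie above and the C57BL/6J points below the A/J points in both panels, and the inputs lie near 0.

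Alleles in 1 nucleus differed in the same direction. Of 217456 F1 regions, 11179 had their midpoint in an LPS-only window on an autosome, whether or not they held allelic tags. Few held many, since only 111 to 303 regions per class of LPS peak and library had at least 10 allelic tags. The log2 ratio of BALB/cJ to C57BL/6J tags in the 3 libraries was 0.05, 0.11 and 0.18 in windows with an LPS peak of BALB/cJ alone and -0.26, -0.26 and -0.22 in windows with a peak of C57BL/6J alone. It was -0.15, -0.09 and -0.11 with a peak of both and -0.06, -0.07 and -0.09 in windows with a Control peak. The difference between the first 2 classes was 0.36 ± 0.05 (SD, n = 3), or 1.28-fold, in all 3 libraries, where an exact sign-flip permutation test cannot go below p = 0.25. In isolated windows it was 0.70 ± 0.27, with 0.41 the lowest and 0.95 the highest library. Here the ratio was -0.54, -0.57 and -0.60 with a peak of C57BL/6J alone, a narrow range, and -0.13, 0.18 and 0.34 with a peak of BALB/cJ alone. These sums rest on few regions. At least 10 allelic tags were held by 50 to 87 isolated regions per library with a peak of C57BL/6J alone, whose median log2 ratios were -0.545, -0.585 and -0.678. With a peak of BALB/cJ alone 22 to 50 regions did so, with medians near 0 (-0.050, 0.0 and 0.078). The F1 regions in LPS-only windows named a peak of untreated F1 cells in 50.8% to 59.8% of cases, against 94.3% in windows with a Control peak.

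Windows that differed between strains were then counted one by one. A test was possible where the mean normalized count was over 16, which held for 3917 (37.1%) of the LPS-only and 56470 (65.8%) of the Control windows. Windows past the test had an adjusted p under 0.05 (edgeR quasi-likelihood test, Benjamini-Hochberg over all 60387 windows tested) and an absolute log2 fold change over 1. Since the filter keeps windows with signal in at least some strain, these counts do not describe the LPS-only windows below it.

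Between BALB/cJ and C57BL/6J, 359 LPS-only windows passed. Of those tested, 125 (3.19%) had more H3K27ac in BALB/cJ, a direction taken by 4.46% of all windows tested, and 234 (5.97%) had more in C57BL/6J, against 4.1% of all windows. Between A/J and C57BL/6J, 84 (2.14%) were higher in A/J, beside 3.16% of all windows, and 176 (4.49%) were lower, beside 3.93%. Between A/J and BALB/cJ, 53 (1.35%) were higher in A/J, beside 1.4% of all windows, and 73 (1.86%) were lower, beside 2.23%. With the replicate number as a block these became 88 and 111, since the numbers paired the libraries. The counts leaned on single libraries. The total of A/J against BALB/cJ fell from 126 to 75 without BALB/cJ replicate 3, and without C57BL/6J replicate 3 the totals of 260 and 359 against C57BL/6J became 157 and 233.

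The calls followed the strain of the LPS peak. Of 1401 tested windows with an LPS peak of C57BL/6J alone, 168 were higher in C57BL/6J and 13 in BALB/cJ. Of 1019 with a peak of BALB/cJ alone, 76 were higher in BALB/cJ and 12 in C57BL/6J (102 and 21 with the replicate block). Windows with a peak of both gave 36 and 54 calls of 1497. Isolated windows were counted in the same way. With a peak of C57BL/6J alone, 53 of 236 were higher in C57BL/6J and 0 in BALB/cJ by edgeR, where an unadjusted p under 0.05 gave 94 and 3 and DESeq2 called 46 and 0. With a peak of BALB/cJ alone, 20 of 206 were higher in BALB/cJ and 2 in C57BL/6J, where the replicate block gave 27 and 6, an unadjusted p under 0.05 36 and 17, and DESeq2 16 and 2. With no filter on low counts, all 3686 and 2932 windows were tested, and the calls in the 2 classes were 248 against 15 and 101 against 14 in the same order.

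**Figure D4:**
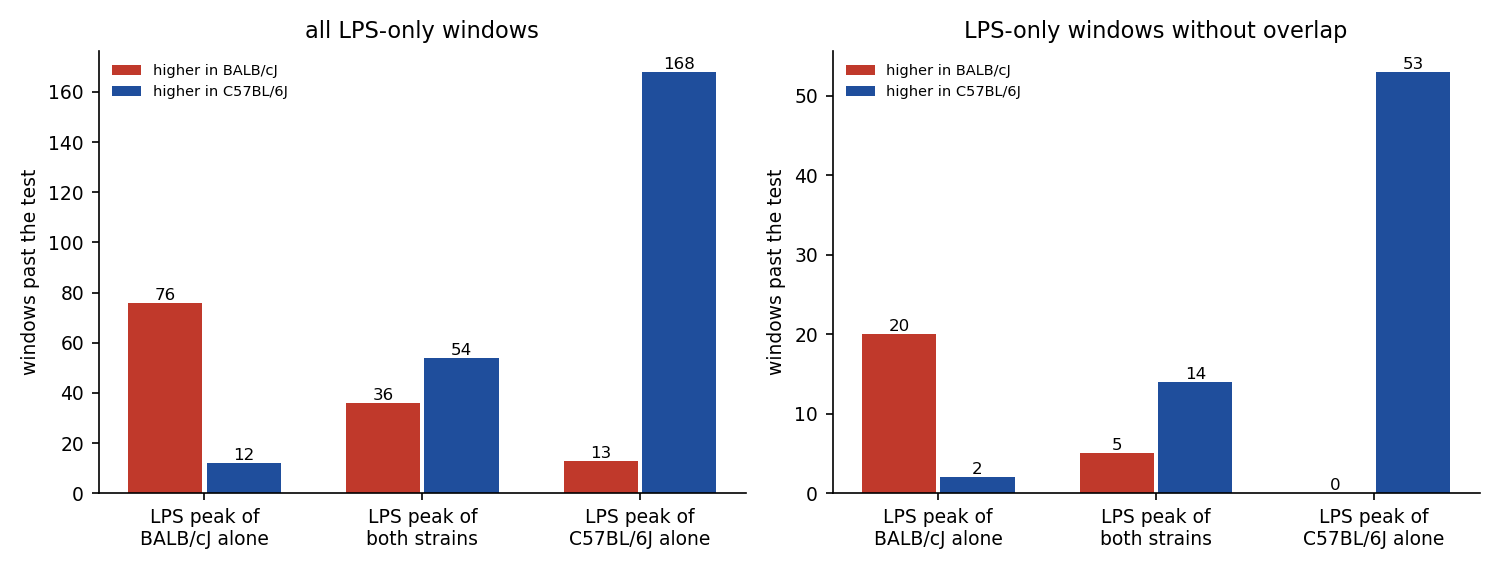
Number of LPS-only windows past the test between BALB/cJ and C57BL/6J by the strain of the LPS peak, over all (left) and isolated (right) windows, with 1 bar per direction and its count above it. Windows with a peak of C57BL/6J alone give 168 calls higher in C57BL/6J against 13, and those with a peak of BALB/cJ alone 76 higher in BALB/cJ against 12.

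A/J, which had no LPS peaks among the sources, differed from both, although comparisons that share a strain share its libraries. In windows with a peak of C57BL/6J alone, 119 were higher in C57BL/6J than in A/J and 7 the other way (142 and 16 with the replicate block), but 38 were higher in A/J than in BALB/cJ and 16 the other way. In windows with a peak of BALB/cJ alone, 36 were higher in BALB/cJ than in A/J and 3 the other way (52 and 11 with the replicate block), but 57 were higher in A/J than in C57BL/6J and 26 the other way. Input gives the DNA recovered in the strain with less H3K27ac. Of the 168 windows higher in C57BL/6J, 3 had no input tag in BALB/cJ, and of the 76 higher in BALB/cJ 1 had none in the single C57BL/6J input, in which 29 held 3 tags or fewer. The part of mapping in these differences was not tested. ISRE matches were in 18 (10.7%) of the 168 windows higher in C57BL/6J, against 84 (6.00%) of the 1401 tested, and AP-1 matches in 16.1% against 14.4%.

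Among the largest differences toward BALB/cJ was the window upstream of Cacna1a (chr8:84414169-84415169, LPS peak of BALB/cJ alone, at -695 bp from the start site). Its normalized counts were 247, 172 and 234 in A/J and 243, 213 and 229 in BALB/cJ, but 1.33, 9.31 and 1.89 for C57BL/6J. C57BL/6J was thus near the bottom of the scale and the other strains overlapped, with BALB/cJ 6.20 ± 0.40 (SE) above C57BL/6J on the log2 scale (adjusted p = 1.44e-10). The window nearest Sfn (chr4:133614640-133615640), in an intron of another gene, had 257, 201 and 286 in BALB/cJ, 97.2, 89.0 and 102 in A/J, but 13.3, 11.6 and 9.45 in C57BL/6J. All 3 strains were apart, the log2 difference of BALB/cJ and C57BL/6J was 4.48 ± 0.29 (adjusted p = 1.79e-10), and its alleles in the F1 held 17.5, 11 and 56 BALB/cJ tags against 0, 4.5 and 5.5 of C57BL/6J.

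The window nearest Tor3a, a torsin family ATPase (chr1:156679301-156680301), lay in a 3′ UTR, 1054 bp from the nearest Control window. It held 54.0, 84.7 and 89.1 in BALB/cJ and 4.00, 9.31 and 1.89 in C57BL/6J, with A/J at 69.2, 59.3 and 109 (BALB/cJ against C57BL/6J 4.27 ± 0.46, adjusted p = 2.71e-07). The F1 alleles held 8, 31.5 and 23 BALB/cJ tags against 10, 0 and 1 of C57BL/6J, so 1 library of 3 did not show the direction. Not every window followed its LPS peak. The window nearest Rsad2, the antiviral protein viperin (chr12:26439519-26440519), had an LPS peak of C57BL/6J alone but held 17.3, 2.33 and 6.93 in C57BL/6J, against 76.8, 110 and 94.2 in BALB/cJ, with A/J at 107, 97.9 and 123. BALB/cJ lay 3.31 ± 0.37 above C57BL/6J (adjusted p = 4.93e-07). Another window nearest Rsad2 (chr12:26460530-26461530) shares long stretches of its central bases, so mapped reads can be split and these counts are uncertain.

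In the other direction, the promoter window of Trim12a (chr7:104315378-104316378) held 98.6, 60.5 and 143 in C57BL/6J and no tag in any library of A/J or BALB/cJ. Against a floor of 3 counts over a strain's libraries, C57BL/6J was at least 109-fold higher than A/J and at least 100.4-fold higher than BALB/cJ. The inputs of A/J and BALB/cJ also held no tag in this window, so that absent acetylation and absent or unmapped DNA cannot be told apart. The window nearest Pde4b (chr4:102516220-102517220), in an intron, held 99.4, 65.3 and 97 in the A/J libraries, 58.6, 105 and 51.6 in those of C57BL/6J and no tag in BALB/cJ. A/J was at least 87.0-fold and C57BL/6J at least 71.5-fold higher, and here the BALB/cJ inputs held 1.67 tags on average against 11.3 in A/J. A window nearest the inflammasome sensor Nlrp1b (chr11:71251417-71252417) held 103 to 166 in A/J, 108 to 130 in C57BL/6J, but 2 tags over the 3 BALB/cJ libraries, and no tag in the BALB/cJ inputs. Trim12a and Nlrp1b belong to families of near-identical copies, between which mapped reads can be split, and their counts are uncertain for that reason.

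At the other 3 windows shown here, higher in C57BL/6J, there were input tags in every strain. The window nearest Taf11, a subunit of the general transcription factor TFIID (chr17:27897275-27898275), held 180, 149 and 214 in C57BL/6J against 4.22, 0 and 0.73 in BALB/cJ (-6.43 ± 0.44, adjusted p = 3.71e-10). The window nearest Mir331 (chr10:93965224-93966224), a microRNA gene, was 1517 bp from a Control window and held 117, 93.1 and 161 in C57BL/6J against 5.91, 0 and 9.49 in BALB/cJ (-4.27 ± 0.41, adjusted p = 4.34e-08). Its F1 alleles held 1, 12 and 14.5 C57BL/6J tags and 0, 3.5 and 0 of BALB/cJ, the same direction in all 3 libraries. At the window nearest AI413582 (chr17:27591961-27592961) BALB/cJ alone was low, with 6.75, 11.4 and 2.19 against 130 to 251 in C57BL/6J and 181 to 222 in A/J. The F1 alleles there gave 17, 40.5 and 11.5 C57BL/6J tags against 0, 1.5 and 0.

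**Figure D5:**
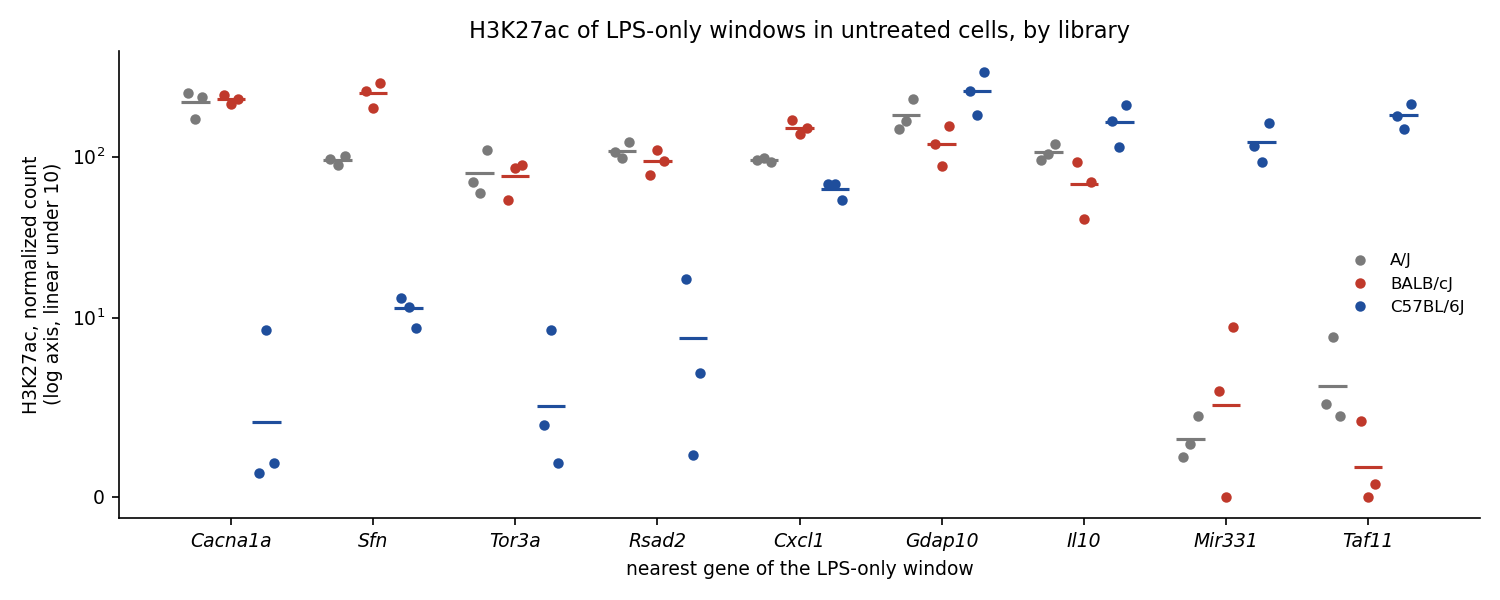
Normalized H3K27ac counts (log axis, linear under 10) of 9 LPS-only windows in the 9 libraries of untreated cells, colored by strain, with strain means as lines. C57BL/6J lies under 20 at the windows nearest Cacna1a, Sfn, Tor3a and Rsad2, and A/J and BALB/cJ lie under 10 at those nearest Mir331 and Taf11.

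Between A/J and BALB/cJ fewer windows differed. The window nearest Pim1, a serine/threonine kinase (chr17:29433677-29434677), held 111, 101 and 102 in A/J against 16.9, 13.7 and 16.1 in BALB/cJ, and C57BL/6J stood between them at 45.3, 27.9 and 32.7 (A/J against BALB/cJ 2.71 ± 0.30, adjusted p = 9.8e-07). The window nearest Rpl38, a ribosomal protein (chr11:114568178-114569178), was low in A/J, at 8.83, 2.97 and 5.17, against 79.4, 77.8 and 66.5 in BALB/cJ and 155, 140 and 160 in C57BL/6J. The log2 difference was -3.51 ± 0.34 (adjusted p = 1.09e-07). At the window nearest Mapkapk2, the kinase downstream of p38 that stabilizes cytokine mRNAs (chr1:131072781-131073781), BALB/cJ alone was high, with 104, 117 and 142 against 16.9, 35.6 and 11 for A/J and 28, 41.9 and 8.82 for C57BL/6J (A/J against BALB/cJ -2.78 ± 0.42, adjusted p = 0.000114).

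Isolated windows with a high level were rare. The 10 highest, by 1 window per gene, had levels of 105 to 241. The highest lay nearest Zfp36 (chr7:28383854-28384854, 1211 bp from a Control window), with 227, 211 and 296 in A/J, 192, 256 and 202 in BALB/cJ, and 211, 277 and 302 for C57BL/6J. These ranges overlapped. Its overlapping neighbor, whose bases are printed above, had a level of 438, and the 2 windows share tags. The other 9 lay nearest Gdap10, Snord96a, Plekho2, the Kupffer cell transcription factor Zeb2, Gtdc1, Kcmf1, Rxra, Ptprj and the ferritin receptor Ncoa4. The window nearest Rxra (chr2:27726623-27727623) had a level of 114 and that nearest Ptprj (chr2:90559732-90560732) 105, with Ptprj tags on both alleles of the F1 (41.5, 97 and 64 of BALB/cJ, 34.5, 120.5 and 57 of C57BL/6J). Of the 10, the Gdap10 window passed the test, lower in BALB/cJ than in C57BL/6J by a log2 difference of -1.08 ± 0.26 (adjusted p = 0.00545). That call was lost without BALB/cJ replicate 2 (-0.92) or C57BL/6J replicate 3 (-0.83). The F1 alleles of the Gdap10 window held 26.5, 78 and 57.5 BALB/cJ tags against 39, 65 and 43 of C57BL/6J, with no common direction.

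Genes of the LPS response, of Kupffer cell identity and of housekeeping were read from 8 lists. No isolated window ranked above had a level over 241, so list windows above that overlapped a Control window and share its tags. Of all windows tested, 4.46% were higher in BALB/cJ and 4.1% in C57BL/6J, and of the tested LPS-only windows 3.19% and 5.97%. Of 30 cytokines and chemokines, 23 had LPS-only windows, 68 in all with a median level of 6.65, and 16 of these could be tested. Between BALB/cJ and C57BL/6J, 2 were higher in each strain, with a median log2 difference of 0.42 over the tested windows beside -0.04 over all tested LPS-only windows. All 4 are named. Both windows higher in BALB/cJ lie nearest Cxcl1, a neutrophil chemokine. The nearer (chr5:90876174-90877174) had 168, 137 and 150 in BALB/cJ and 68, 67.5 and 53.5 in C57BL/6J, with A/J between them at 95, 97.9 and 93.1 (1.30 ± 0.23, adjusted p = 0.000365). The other (chr5:90852497-90853497), with an LPS peak of BALB/cJ alone, had 92.9, 41.2 and 65.7 in BALB/cJ and 14.7, 2.33 and 5.04 in C57BL/6J (3.19 ± 0.45, adjusted p = 1.35e-05). The F1 alleles of that window held 5, 13.5 and 11.5 BALB/cJ tags against 0, 0 and 1.

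Il10 and Il12b went the other way. The intronic Il10 window (chr1:131020163-131021163) had 167, 114 and 208 in C57BL/6J and 92, 41.2 and 69.4 in BALB/cJ, with A/J at 95, 104 and 120 (-1.24 ± 0.27, adjusted p = 0.00268). The Il12b window (chr11:44371877-44372877) had 17.3, 41.9 and 34 in C57BL/6J against 7.60, 2.29 and 11 in BALB/cJ (-1.92 ± 0.47, adjusted p = 0.00669), and both had an LPS peak of C57BL/6J alone. The F1 alleles of the Il12b window held 3.5, 3.5 and 0 BALB/cJ tags against 1.5, 17 and 0 of C57BL/6J, with no common direction. Il10 restrains the response and Il12b is a subunit of the cytokines IL-12 and IL-23. Windows nearest Tnf and the monocyte chemokine Ccl2 did not pass the test. The Tnf window (chr17:35201076-35202076), in its first intron, had a level of 167, with 238, 178 and 159 in A/J, 195, 160 and 103 in BALB/cJ, and 139, 158 and 176 for C57BL/6J, so that all 3 strains overlapped, and the Ccl2 window had a level of 101.

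Feedback inhibitors, genes that end the response, had 94 windows at 24 of 30 genes. The most acetylated were at the promoters of Nfkbib, an inhibitor of NF-κB (798), and Dusp1, a phosphatase of MAP kinases (578), which did not pass the test in any comparison. Of 31 tested windows 1 was higher in BALB/cJ and 2 in C57BL/6J, with a median of -0.10. They lie nearest Gadd45b (1 in each direction) and Sbno2. TLR4 and NF-κB genes had 70 windows at 22 of 33 genes, among them Cflar (493), which blocks caspase-8, Tlr4 itself (362), its adaptor Ticam1 (199.5) and Tlr2 (187). Of 26 tested, 2 were higher in C57BL/6J, nearest Birc3 and Irak4, and 0 in BALB/cJ by edgeR, with 3 and 2 at an unadjusted p under 0.05 and 1 and 0 by DESeq2. The Birc3 window (chr9:7862568-7863568), isolated and with an ISRE, had 28, 18.6 and 32.1 in C57BL/6J against 3.38, 13.7 and 11 in BALB/cJ (-1.66 ± 0.47, adjusted p = 0.0212).

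AP-1 and ATF genes had 70 windows at 20 of 28 genes, and 28 of these windows (40.0%) held an AP-1 match, beside 33.7% of all LPS-only windows. The highest lay nearest Klf6 (422), the AP-1 subunits Fos (354) and Jund (256) and the early response gene Ier3 (350). Of 22 tested, edgeR and DESeq2 each called 0 between BALB/cJ and C57BL/6J, and an unadjusted p under 0.05 gave 0 higher in BALB/cJ and 2 in C57BL/6J. Enzymes and metabolic genes induced by LPS had 54 windows at 21 of 29 genes. Of 19 tested, 2 were higher in BALB/cJ and 4 in C57BL/6J, beside 4.46% and 4.1% of all windows tested. Arg2, the mitochondrial arginase, had 112, 158 and 99.3 in BALB/cJ against 37.3, 46.6 and 66.1 in C57BL/6J (chr12:79135221-79136221, 1.23 ± 0.28, adjusted p = 0.00346). Hilpda, an inhibitor of lipolysis, was also higher in BALB/cJ (1.08 ± 0.32, adjusted p = 0.0263), a call lost without any of 4 libraries. The 4 higher in C57BL/6J lie nearest Plac8 (2 windows), Arg1 and Acod1, the enzyme that makes itaconate.

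Of 66 windows at 25 of 38 interferon genes, with a median level of 16, 33 were tested, and 8 were higher in C57BL/6J and 2 in BALB/cJ, with a median log2 difference of -0.41. Over all tested LPS-only windows 5.97% and 3.19% took these directions, and for the list DESeq2 called 6 and 2, with 12 and 5 at an unadjusted p under 0.05. Both windows higher in BALB/cJ lie nearest Rsad2, and long stretches of their central bases are identical. Mapped reads can be split between such copies, so their counts are uncertain and the calls may not be independent. Among the 8 are windows nearest Zbp1 (2), a sensor of Z-form nucleic acids, Ifit2 (2), Ifit3, Ifi204 and Stat3. The isolated Ifit3 window (chr19:34585816-34586816) had 60, 60.5 and 51.6 in C57BL/6J, above the 8.90 to 25.2 of the other 6 libraries (-1.36 ± 0.35 against BALB/cJ, adjusted p = 0.0108). Irf8, a factor of macrophage development, had a level of 213 and did not pass the test.

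Kupffer cell identity genes had the highest median level of the 8 lists, 31.6 over 65 windows at 20 of 28 genes, and 41 could be tested. Of these 8 were higher in C57BL/6J, beside 5.97% of all tested LPS-only windows, although the median log2 difference was -0.09. Higher in BALB/cJ were 0, beside 3.19% of all, by edgeR, at an unadjusted p under 0.05 and by DESeq2, which also called 8 in C57BL/6J. The 8 lie nearest Cd5l (4), the scavenger receptor Marco (2), the phosphatidylserine receptor Timd4 and Nr1h3, which encodes LXRα. The first Cd5l window (chr3:87328935-87329935), at -28446 bp from the start site, had 131, 158 and 159 in C57BL/6J, against 16, 9.16 and 14.6 in BALB/cJ, and 8.10, 2.97 and 13.6 for A/J. Only C57BL/6J was high, by a log2 difference of -3.39 ± 0.32 for BALB/cJ against it (adjusted p = 3.51e-08), and its F1 alleles held 4, 24.5 and 15 C57BL/6J tags against 2, 12.5 and 0. The isolated Cd5l window beside it (chr3:87326620-87327620) had 155, 93.1 and 140 in C57BL/6J against 19.4, 13.7 and 16.8 in BALB/cJ (-2.92 ± 0.33, adjusted p = 4.43e-07). Its F1 alleles held 28.5, 44.5 and 44 C57BL/6J tags against 14.5, 9 and 16, higher for C57BL/6J in each of the 3 libraries.

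The isolated Timd4 window (chr11:46793881-46794881) went against its LPS peak, which was of BALB/cJ alone, with 45.3, 41.9 and 51.6 in C57BL/6J and 13.5, 22.9 and 15.3 in BALB/cJ (-1.52 ± 0.34, adjusted p = 0.00358). Id3, a regulator of Kupffer cell development, had a promoter window at 308 that did not pass the test. Housekeeping genes, the last list, had 18 windows at 11 of 24 genes, of which 1 of 7 tested, nearest B2m, was higher in C57BL/6J and 0 in BALB/cJ by edgeR, with 3 and 1 at an unadjusted p under 0.05 and 1 and 0 by DESeq2. Called windows of the lists that are not the highest of their list, among them those of Cd5l, Il12b, Birc3, Ifit3 and Timd4, were chosen after their values were seen.

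Other windows lie nearest genes that the study names. The Cxcr4 window (chr1:128712133-128713133), at -120334 bp from the start site of this chemokine receptor, had 126, 112 and 108 in BALB/cJ against 33.3, 41.9 and 34 in C57BL/6J (1.69 ± 0.28, adjusted p = 0.000112). The H2-Ab1 window (chr17:34257735-34258735), near a chain of MHC class II, had 251, 255 and 230 in A/J and 165, 210 and 296 in C57BL/6J, but 130, 87 and 91.3 in BALB/cJ (-1.12 ± 0.24 against C57BL/6J, adjusted p = 0.00242). That call was lost without C57BL/6J replicate 3 (-0.84). Cd300e, a myeloid activating receptor, had a window at 153 whose difference of -0.90 (adjusted p = 0.0271) lay below the fold threshold, and Irak3, an inhibitor of TLR signaling, had one at 53.2 that did not pass. The A/J difference from C57BL/6J there was -1.05 (adjusted p = 0.0756), which passed with the replicate block (adjusted p = 0.00502). The windows nearest Slc7a2, an arginine transporter (6.06), and the lipid receptor Trem2 (7.02) were too low to be tested.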

How the data were processed

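The members, gene lists and tests were chosen with earlier results of these data known. The raw counts of replicates 1 and 3 were made by the authors with Bowtie2, which mapped reads to the genome of each strain, with MMARGE, which shifted them to mm10, and with HOMER, which counted tags in 1000-bp windows. The deposited values of replicate 2, the inputs and the F1 are expected counts in steps of 0.5 (34.4%, 38.8% and 37.8% of windows with a fraction in replicate 2 of the A/J, the BALB/cJ and the C57BL/6J libraries), for which how the fractions arose is not given in the sources used here. Strain genomes carry SNPs and indels, and larger variants can lower mapping. Tool versions are not given in the sources used here, the F1 tags are those assigned to an allele by a variant, and 6 per-sample F1 columns of perfectly mapped reads were not used.

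LPS-only windows were found from the recorded source peaks. Counts were rounded and fitted with edgeR 4.0.16 (TMM, robust quasi-likelihood, the 9 libraries in 1 fit, mean normalized count over 16), which was tested on simulated data. Effective sizes were 2454651 to 11561221, the biological coefficient of variation was 0.214, and SE is the absolute log2 fold change over the square root of F. The filter left 37.1% of LPS-only windows to test, which depth limits. Deviations of libraries with the same replicate number correlated at 0.227 to 0.414 in all 9 pairs, from the labels' numbers, so the numbers pair the samples and a block was run. Motifs and sequences came from the mm10 genome (96232 windows with a sequence), outside exons, UTRs and transcript ends for those printed. The windows named are the 4 largest calls per comparison and direction (replicates apart, higher strain at least 50), the 10 highest isolated windows, the 2 to 4 highest of each list and those of genes named by the study. A window among these is not reported here. Alternatives were DESeq2 1.42.0, filters, the block, 2-strain fits, left-out libraries and other sets of windows, of which 2 were chosen after seeing the data.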

Additional observations from a re-analysis of the deposited data

How the results depend on the processing

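Of 136 alternatives to the main values and counts, 120 were counted as unchanged. For totals of calls this meant staying within 1.5 times the main total. For values it meant keeping the direction and, where a test could reach it, the side of the p threshold. Exact permutation tests of 3 against 3 libraries cannot go below p = 0.10, nor the F1 sign-flip tests below p = 0.25. Those alternatives could not change side, so only their direction was checked. Against windows with a Control peak alone, the log2 ratio of LPS-only windows became 0.22 and its difference from input 0.31, and the strain differences of A/J and of BALB/cJ from C57BL/6J became 0.0074 and 0.0012. By medians the A/J difference from C57BL/6J was 0.0569, and with 1 library left out it ranged from -0.0355 to 0.0091, above 0 without A/J replicate 3 or C57BL/6J replicate 2. These differences are smaller than the spread between libraries. With a mean count over 32, 148 and 207 windows passed for A/J and BALB/cJ against C57BL/6J. The replicate block gave 199 for A/J against BALB/cJ, with 43 in isolated windows in place of 17 and 63 in place of 39 with an LPS peak of BALB/cJ alone, and changed no other printed total by over 1.5 times. Isolated windows alone gave 17, 61 and 94 for A/J against BALB/cJ, A/J against C57BL/6J and BALB/cJ against C57BL/6J, the first with more calls higher in A/J (10) than in BALB/cJ (7), against 53 and 73 over all LPS-only windows. With 1 library left out the totals ranged over 75 to 123, 157 to 297 and 233 to 400. The direction of each of 39 named window calls held in 466 alternatives, and 7 windows, among them those nearest Gdap10, Gbp2, Plac8, Hilpda, Pcolce2 and H2-Ab1, lost a call in 21 of them. The 2 sets added after seeing the data, without windows of extreme input and without overlap with another Control window (both kinds), kept every direction they were run for. The cause of these changes was not tested, except that fewer windows or libraries enter some of them.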
